A study of Mus musculus with 16 samples.

Results

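The NF-kB feedback inhibitors examined here were 10 genes, Nfkbia, Nfkbib, Nfkbie, Nfkbiz, Bcl3, Tnfaip3, Tnip1, Tnip2, Cyld and Birc3. They were picked by name from the 50508 genes of the count table, by a rule that uses no measured value but was drawn up with earlier results of these data known, and all 10 passed the filter on low counts. The RNA came from monocytes grown out of the bone marrow of 4 wild-type (WT) mice, animals 1 to 4, and no source used here gives their strain, age or sex. Every culture received M-CSF, the growth factor that keeps monocytes alive and drives them towards macrophages, for 24 h, so that the controls carried it too. The vehicle group had M-CSF with vehicle, the PFM037 group had M-CSF with the compound PFM037, the TNF group had M-CSF with tumour necrosis factor, and the PFM037+TNF group had M-CSF with both agents. Each group held 4 libraries, 1 per animal, which makes 16 in all. PFM037 is known only by its code name, and no source used here gives its dose or target, or the dose of TNF. The question addressed is which of these inhibitors TNF raised or lowered, and whether PFM037 altered their levels with or without TNF.

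NF-kB transcription factors are held in the cytoplasm by IkB proteins until a signal such as TNF activates the IKK kinase, which marks IkB for destruction. The freed NF-kB then drives many genes, among them its own inhibitors, so that the response is limited by negative feedback. In monocytes and macrophages this loop is known for restraining inflammatory output and for protecting cells that TNF could otherwise kill.

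Library totals ran from 9403232 to 21017905 counts, both in the TNF group, and each member had between 282 and 13488 counts in every library. Levels are given as CPM, read counts scaled to a common effective library total. The markers of monocytes and macrophages Csf1r (1015 to 2864 CPM), Cd68 (396 to 753 CPM) and Lyz2 (18985 to 36770 CPM) were present in all 16 libraries. Markers of other cells were present as well. None of the listed markers was at 0 in all libraries, but some were near it. Col3a1 had at most 0.066 CPM, Pdgfra at most 0.094 CPM and Xcr1 at most 0.18 CPM. The 10 neutrophil markers summed to between 10400 and 25200 CPM, the 8 erythroid and megakaryocyte markers to between 927 and 3387 CPM, and the 8 lymphocyte markers to between 15.7 and 52.6 CPM. The 10 mast cell, basophil and eosinophil markers summed to between 369 and 654 CPM in the libraries of animals 1 and 2 and to between 161 and 201 CPM in those of animals 3 and 4. Animals 3 and 4 were also close over all genes. A chi-square of counts per degree of freedom was 7.45 to 9.86 between their libraries of the same group, 17.6 to 54.9 between animals 1 and 2, and 49.1 to 123 across these pairs. In such bulk samples, fewer cells of a type and less RNA per cell cannot be told apart.

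Upstream windows are shown here because an NF-kB binding motif close to the start of the gene is the textbook feature of this feedback loop. The 250 bases before the RefSeq start were read for 9 members, all but Nfkbiz, from the RefSeq promoter table of build GRCm38.p6. Both strands were searched for the kappaB consensus, the general NF-kB motif. The windows printed are those of the 4 members that hold a match and were called higher with TNF, of Cyld, which holds a match and was not called, and of Birc3, which was called and holds none. They lie at chr12:55492648-55492897 for Nfkbia, chr10:19015411-19015660 for Tnfaip3, chr11:54962941-54963190 for Tnip1 and chr9:7873171-7873420 for Birc3, all on the minus strand, and at chr17:45555450-45555699 for Nfkbie and chr8:88696778-88697027 for Cyld on the plus strand. Each is written 5′ to 3′ along the gene, with matches to the kappaB consensus in capitals.
Nfkbia: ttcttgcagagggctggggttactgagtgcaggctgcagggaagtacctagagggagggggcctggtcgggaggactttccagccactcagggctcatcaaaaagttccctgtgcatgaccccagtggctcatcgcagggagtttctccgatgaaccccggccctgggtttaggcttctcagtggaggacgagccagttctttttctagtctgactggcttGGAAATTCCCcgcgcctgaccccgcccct
Nfkbie: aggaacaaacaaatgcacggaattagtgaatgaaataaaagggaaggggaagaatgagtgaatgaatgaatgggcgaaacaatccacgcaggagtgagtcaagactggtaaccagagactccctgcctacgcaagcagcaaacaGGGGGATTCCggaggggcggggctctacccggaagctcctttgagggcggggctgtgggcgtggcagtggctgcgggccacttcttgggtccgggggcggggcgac
Tnfaip3: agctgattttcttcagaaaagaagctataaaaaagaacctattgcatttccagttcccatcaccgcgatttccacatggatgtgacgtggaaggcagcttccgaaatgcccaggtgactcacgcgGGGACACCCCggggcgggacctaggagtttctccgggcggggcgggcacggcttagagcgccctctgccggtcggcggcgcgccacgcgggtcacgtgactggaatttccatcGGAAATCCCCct
Tnip1: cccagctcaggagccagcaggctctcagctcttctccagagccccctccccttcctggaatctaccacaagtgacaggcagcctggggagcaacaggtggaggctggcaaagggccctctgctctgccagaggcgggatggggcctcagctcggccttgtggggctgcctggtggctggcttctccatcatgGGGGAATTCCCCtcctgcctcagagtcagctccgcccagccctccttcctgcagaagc
Cyld: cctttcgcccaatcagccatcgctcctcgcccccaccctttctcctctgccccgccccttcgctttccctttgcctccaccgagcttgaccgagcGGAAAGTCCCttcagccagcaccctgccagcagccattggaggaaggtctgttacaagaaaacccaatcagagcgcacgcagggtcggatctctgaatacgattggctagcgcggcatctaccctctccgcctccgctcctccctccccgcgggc
Birc3: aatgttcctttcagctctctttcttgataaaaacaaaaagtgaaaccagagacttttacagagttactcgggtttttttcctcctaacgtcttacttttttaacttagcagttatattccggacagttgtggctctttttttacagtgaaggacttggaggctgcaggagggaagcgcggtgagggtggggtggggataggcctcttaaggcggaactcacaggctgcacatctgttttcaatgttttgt

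The kappaB consensus was found before 5 of the 9 starts. It lay at -29 to -20 from the start in Nfkbia, at -106 to -97 in Nfkbie and at -155 to -146 in Cyld. In Tnip1 overlapping matches on both strands spanned -58 to -47, and in Tnfaip3 there were matches at -125 to -116 and at -12 to -3. None was found before Nfkbib, Tnip2, Bcl3 or Birc3. Over all 32851 windows of the same length in the table, 7.25% held the consensus, and 8.23% of the 27025 genes had at least 1 such window. The RefSeq start used for Tnfaip3 lay 247 bases from the start in the GENCODE annotation and that for Nfkbib 868 bases, and a second RefSeq start of Tnfaip3 had no match. A match describes letters and shows neither binding nor regulation.

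**Figure D1:**
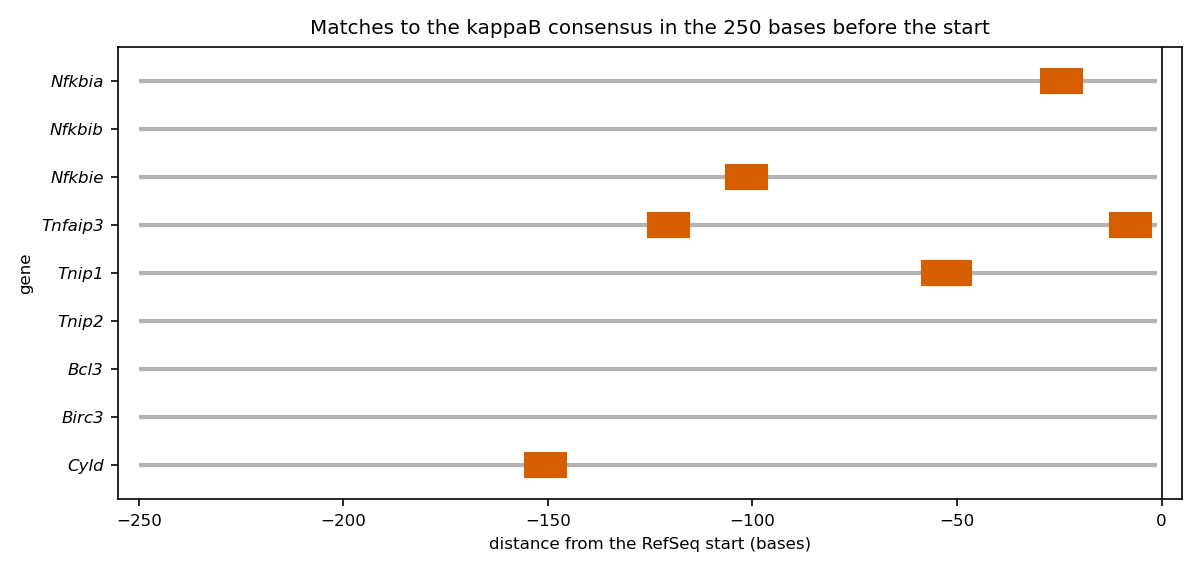
Positions of matches to the kappaB consensus (boxes) in the 250 bases before the RefSeq start of 9 members, with distance from the start in bases on the x axis and 1 line per gene. Matches are drawn for Nfkbia, Nfkbie, Tnfaip3, Tnip1 and Cyld, and the other 4 lines carry none.

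Of the 10 inhibitors, 6 rose with TNF, namely Tnfaip3, Nfkbie, Nfkbia, Birc3, Tnip1 and Nfkbib, by 1.36-fold to 4.22-fold, and none fell. Of all 13856 genes tested, 1.8% were called higher and 0.88% lower in this comparison (edgeR's quasi-likelihood test, Benjamini-Hochberg adjusted p under 0.05), against 6 and 0 of 10 here. With the animal as a block, which compares each TNF culture with the vehicle culture of the same animal, Nfkbiz and Bcl3 were called higher as well, making 8 of 10 against 9.59% of all genes, and none was called lower, against 9.84%. In the block model the log2 change was 1.65 (SE 0.10) for Nfkbia and 2.07 (SE 0.15) for Tnfaip3. It was 1.00 (SE 0.13) for Tnip1 and 0.45 (SE 0.08) for Nfkbib. Cyld and Tnip2 were not called in either model. The median log2 change over the 10 was 0.98, beside -0.02 over all genes tested.

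Cell type markers differed between TNF and vehicle as well. The 12 monocyte and macrophage markers summed to 27967, 26741, 34324 and 37621 CPM in animals 1 to 4 with vehicle and to 43922, 37045, 42163 and 45552 CPM with TNF, higher in 4 of 4 animals. The neutrophil sum was lower with TNF in 4 of 4, at 14558, 23449, 12918 and 11754 CPM with vehicle and 14138, 15780.3, 12311 and 10400 CPM with TNF. The lymphocyte and the stromal sums were lower in 4 of 4 too, and the dendritic cell sum was higher in 3 of 4. In PFM037+TNF against PFM037 the monocyte and macrophage sum was again higher and the lymphocyte sum lower in 4 of 4, and the neutrophil sum was lower in 2 of 4. Single genes carry some of these sums. Over the 16 libraries, the median of Lyz2 was 28333 CPM, and that of Itgam, the next monocyte and macrophage marker, was 2263 CPM. The median of Pecam1 was 26.4 CPM, and that of Pdgfrb, the next stromal and endothelial marker, was 2.13 CPM. A change in such a sum need not hold for the rest of its list. The part of these markers in the changes of the 10 genes was not tested.

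The classical IkB proteins, which bind NF-kB and hold it in the cytoplasm, are encoded by Nfkbia (IkB alpha), Nfkbib (IkB beta) and Nfkbie (IkB epsilon). Nfkbia (ENSMUSG00000021025.8, chromosome 12, 55489410 to 55492647, GRCm38) had 176, 178, 195 and 173 CPM in animals 1 to 4 with vehicle, 168, 159.9, 162 and 144 CPM with PFM037, 659, 623, 628 and 398 CPM with TNF, and 676, 575, 580.4 and 390.5 CPM with both. All cultures with TNF lay above all cultures without it, and animal 4 was the lowest of each group. The rise with TNF was 3.20-fold (log2 change 1.68, SE 0.17, adjusted p = 7.23e-05, edgeR), and the log2 change within the animals was 1.90, 1.81, 1.69 and 1.21. The call held whichever of the 16 libraries was left out.

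Nfkbie had 21.2, 19.6, 59.6 and 57.0 CPM in animals 1 to 4 with vehicle, 19.9, 19.8, 40.2 and 44.3 CPM with PFM037, 93.7, 92.8, 170.1 and 166 CPM with TNF, and 100.1, 82.2, 148 and 145 CPM with both. TNF and vehicle did not overlap, and in every group animals 3 and 4 lay above animals 1 and 2. Its rise was 3.32-fold (log2 change 1.73, SE 0.40, edgeR adjusted p = 0.0307), and 3.55-fold with the animal as a block (log2 change 1.83, SE 0.13, edgeR adjusted p = 1.11e-07). The log2 change was 2.15 and 2.24 in animals 1 and 2 and 1.51 and 1.54 in animals 3 and 4, while the gain in level was 72.5 and 73.2 CPM in the former and 110.5 and 108 CPM in the latter. So the animals with the higher vehicle level gained more CPM and fewer fold. Without the block the call was lost when vehicle 1, vehicle 2, TNF 3 or TNF 4 was left out, with adjusted p up to 0.0997 (edgeR), and with the block it held without any 1 animal. A fit to only the vehicle and TNF libraries, without the block, also lost it (edgeR adjusted p = 0.118).

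Nfkbib moved least of the called members. It had 37.3, 42.2, 41.1 and 40.9 CPM in animals 1 to 4 with vehicle, 33.0, 34.6, 37.5 and 38.4 CPM with PFM037, 53.1, 56.1, 60.1 and 51.0 CPM with TNF, and 56.3, 47.5, 49.7 and 47.4 CPM with both. Cultures with TNF lay above all cultures without it. The rise was 1.36-fold (log2 change 0.45, SE 0.09, edgeR adjusted p = 0.0104). Without the filter on low counts the adjusted p was 0.081, and with only the vehicle and TNF libraries in the fit it was 0.0721 (edgeR). Its exons share 314 bases with Ccer2 and 42 bases with Sirt2 on the opposite strand, and reads there may belong to either gene, since no source used here says whether the counting used the strand.

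Nfkbiz and Bcl3 encode the nuclear IkB-like proteins IkB zeta and Bcl-3, which act on NF-kB bound to DNA and can raise as well as restrain its output. Nfkbiz had 39.1, 53.0, 140.0 and 119 CPM in animals 1 to 4 with vehicle, 60.0, 56.4, 133 and 116 CPM with PFM037, 105, 112, 290.2 and 174 CPM with TNF, and 149.9, 161, 263 and 195 CPM with both. The TNF and vehicle groups overlapped, although within every animal the TNF culture was higher, by log2 changes of 1.42, 1.08, 1.05 and 0.55. The log2 change was 0.95 (SE 0.43, edgeR adjusted p = 0.342) without an animal term and 1.00 (SE 0.15, edgeR adjusted p = 0.00013) with the animal as a block. Bcl3 had 19.6, 19.9, 49.1 and 37.2 CPM with vehicle, 21.0, 17.2, 35.8 and 38.8 CPM with PFM037, 34.5, 26.3, 59.7 and 46.6 CPM with TNF, and 41.2, 31.5, 55.9 and 46.0 CPM with both. Its groups overlapped too, and the TNF culture was again the higher in 4 of 4 animals, by log2 changes of 0.82, 0.40, 0.28 and 0.32. With TNF, Tnip2 and Cyld were also higher in 4 of 4, without a call in either model. This direction alone thus does not set a member apart. The log2 change of Bcl3 was 0.41 (SE 0.34, edgeR adjusted p = 0.70) without an animal term and 0.44 (SE 0.12, edgeR adjusted p = 0.0146) with it. The second call held in 2 of the 4 fits that leave out an animal. Exons of Bcl3 share 161 bases with the antisense gene Gm16175.

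The ubiquitin-editing inhibitors act upstream, at the receptor and IKK complexes. Tnfaip3 encodes A20, which edits ubiquitin chains on signalling proteins, and Tnip1 and Tnip2 encode ABIN-1 and ABIN-2, adaptors that bind A20. Tnfaip3 (ENSMUSG00000019850.11, chromosome 10, 19000910 to 19015657, GRCm38) had 93.7, 77.2, 106 and 115 CPM in animals 1 to 4 with vehicle, 87.1, 64.3, 94.9 and 92.6 CPM with PFM037, 466, 415, 472 and 304 CPM with TNF, and 443, 411, 495 and 303 CPM with both. All cultures with TNF lay above all cultures without it, and animal 4 was again the lowest with TNF. Its rise, 4.22-fold, ranked 47 of 13856 genes and above the other 9 members (log2 change 2.08, SE 0.19, adjusted p = 2.3e-05, edgeR), and the call held without any 1 library. Within the animals the log2 change was 2.31, 2.43, 2.15 and 1.40.

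Tnip1 had 63.6, 78.5, 99.2 and 98.4 CPM in animals 1 to 4 with vehicle, 69.4, 80.7, 78.1 and 84.9 CPM with PFM037, 166, 203, 164 and 145 CPM with TNF, and 204, 199.5, 163 and 152 CPM with both. The groups with and without TNF did not overlap, and with TNF the order of the animals turned, with animals 1 and 2 above animal 4. The log2 change was 1.00 (SE 0.15, edgeR adjusted p = 0.00175), and the call held without any 1 library. Tnip2, the other A20-binding adaptor of the list, lay between 27.5 and 43.5 CPM in all 16 libraries. Its means were 31.9 ± 4.64 CPM with vehicle, 35.2 ± 5.84 CPM with PFM037, 33.0 ± 3.94 CPM with TNF and 33.7 ± 3.29 CPM with both (SD, n = 4), and all groups overlapped. The log2 change with TNF was 0.05, with a 95% interval from -0.24 to 0.33, or from -0.11 to 0.21 with the animal as a block. The upper bound of Tnip2 lay below the lower bound of Tnip1, 0.68 on the log2 scale.

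Cyld encodes a deubiquitinase that removes chains needed for IKK activation. It had 78.6, 69.4, 83.1 and 95.3 CPM in animals 1 to 4 with vehicle, 79.9, 73.8, 90.6 and 91.3 CPM with PFM037, 86.0, 93.6, 91.5 and 105 CPM with TNF, and 88.0, 108, 107 and 114 CPM with both. All groups overlapped. The log2 change with TNF was 0.21 (95% interval -0.04 to 0.45, edgeR adjusted p = 0.482), with an adjusted p of 0.0551 (edgeR) with the animal as a block. Birc3 encodes the ubiquitin ligase cIAP2, which takes part in TNF receptor signalling, restrains the alternative NF-kB pathway and protects from cell death. It had 52.4, 50.4, 128 and 124 CPM in animals 1 to 4 with vehicle, 54.3, 49.2, 106 and 108 CPM with PFM037, 188, 176, 274 and 245 CPM with TNF, and 189, 206, 241 and 238 CPM with both. TNF lay above vehicle in full, and animals 3 and 4 were the higher in every group. The rise was 2.49-fold (log2 change 1.31, SE 0.33, edgeR adjusted p = 0.0463), and 2.66-fold with the animal as a block (edgeR adjusted p = 9.15e-06). The call without the block held in 5 of the 16 fits that leave out a library, with adjusted p up to 0.14 (edgeR), and with the block it held in all 4 that leave out an animal. It was also lost without the block when only the vehicle and TNF libraries were fitted (edgeR adjusted p = 0.145). The log2 change was 1.84 and 1.81 in animals 1 and 2 and 1.10 and 0.98 in animals 3 and 4, whereas the gain in level was 135, 126, 146 and 121 CPM.

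**Figure D2:**
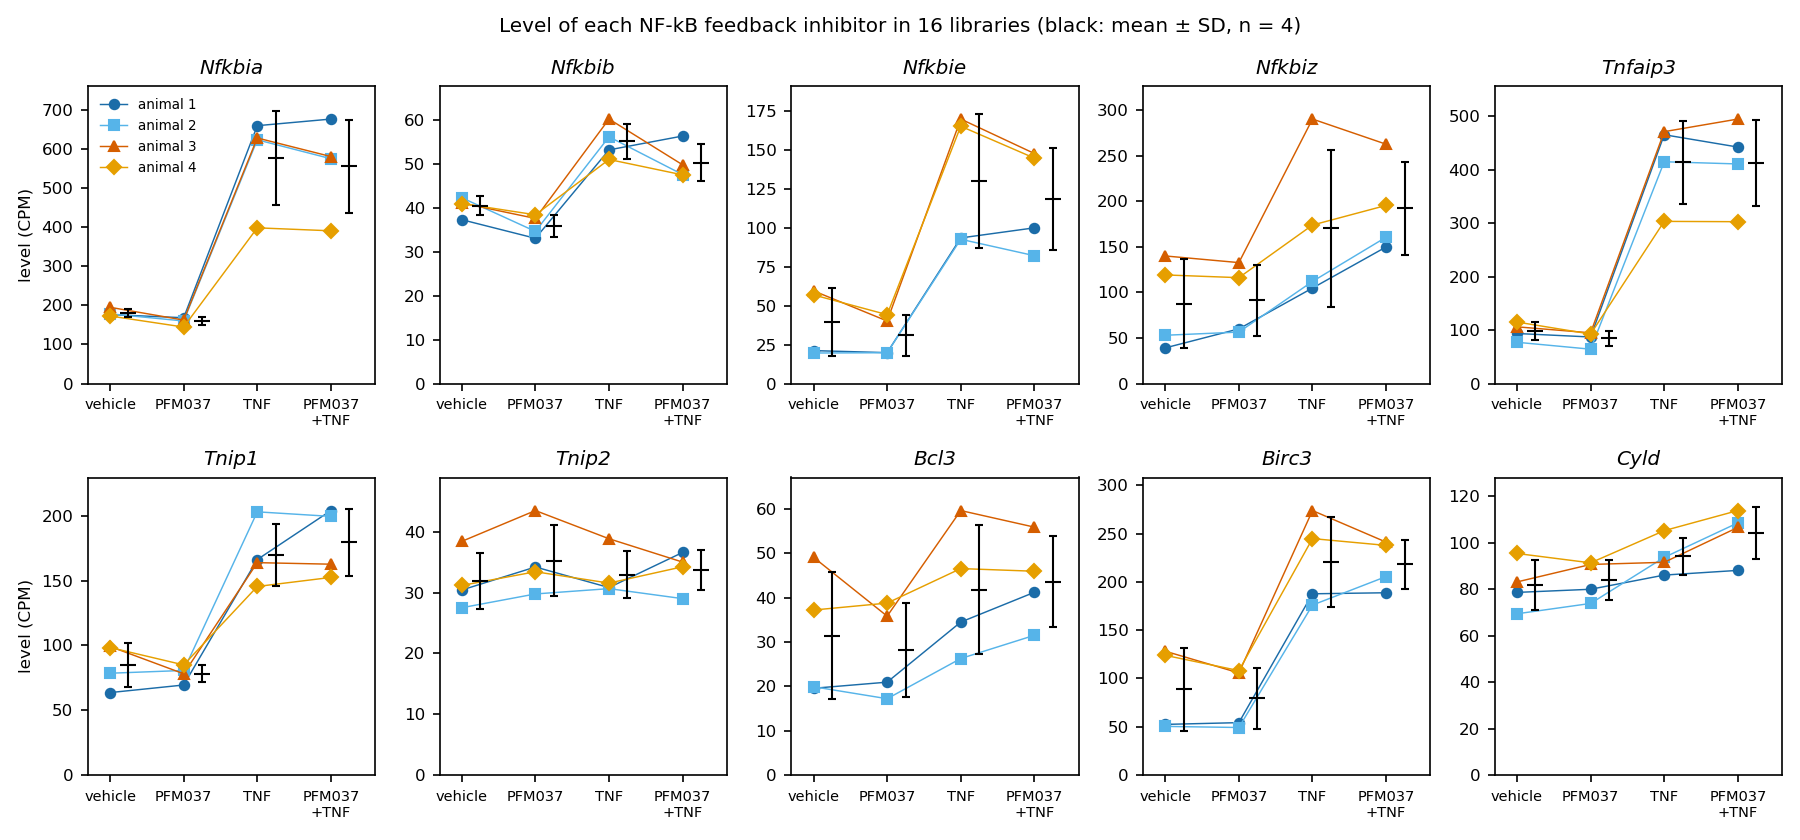
Level in CPM (y axis, linear, from 0) of each of the 10 inhibitors in the 4 groups (x axis), with 1 point per library, points of the same animal joined, and black bars for the mean and SD over 4 animals. Nfkbia, Tnfaip3 and Tnip1 part by TNF, while Nfkbie, Nfkbiz, Birc3 and Bcl3 part by animal as well.

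Vehicle levels of Nfkbie, Nfkbiz, Birc3 and Bcl3 were all higher in animals 3 and 4 than in animals 1 and 2, and these are the members whose standard errors shrank most with the animal as a block. The summed mast cell, basophil and eosinophil markers ran the other way, between 369 and 459 CPM in the vehicle libraries of animals 1 and 2 and between 181 and 188 CPM in those of animals 3 and 4, and the neutrophil and lymphocyte sums were also higher in animals 1 and 2. The monocyte and macrophage sum, given above, and the dendritic cell sum, at 39.5 and 41.9 CPM in animals 1 and 2 and 53.7 and 53.4 CPM in animals 3 and 4, ran the same way as these 4 genes. The part of any of these markers in the levels was not tested. Groups did not overlap, with TNF higher, for 6 of 10 members, against 4.44% of all genes.

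Levels were compared between genes per kilobase of exon, from the GENCODE annotation of GRCm38. In vehicle cultures Nfkbia stood at 112 ± 6.13 CPM per kilobase (SD, n = 4), and Tnip1 followed at 24.0 ± 4.84. The next members, Nfkbib at 18.6, Birc3 at 17.7, Nfkbiz at 17.5, Tnfaip3 at 13.6, Nfkbie at 12.9, Bcl3 at 12.7 and Tnip2 at 11.9 CPM per kilobase, had neighbours that did not differ beyond their spread, which reached an SD of 9.83 for Nfkbiz, 8.62 for Birc3, 7.20 for Nfkbie and 5.81 for Bcl3. Cyld was lowest at 6.49 ± 0.858. With TNF Nfkbia reached 358 ± 74.8 CPM per kilobase and Tnfaip3 57.3 ± 10.8, ahead of Tnip1 at 47.9, Birc3 at 44.0 and Nfkbie at 42.9, which do not differ from it beyond their spread. Nfkbiz stood at 33.9, Nfkbib at 25.4, Bcl3 at 16.9, Tnip2 at 12.3 and Cyld at 7.48 CPM per kilobase with TNF. By its mean Tnfaip3 stood at rank 6 with vehicle and at rank 2 with TNF. At neither rank did it differ from all its neighbours beyond the spread.

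In the presence of PFM037, TNF raised the same 6 members, Tnfaip3, Nfkbie, Nfkbia, Birc3, Tnip1 and Nfkbib, in PFM037+TNF against PFM037, where 1.54% of all genes were called higher. Tnfaip3 rose 4.88-fold (log2 change 2.29, SE 0.19), Nfkbie 3.83-fold (1.94, SE 0.41), Nfkbia 3.50-fold (1.81, SE 0.17), Birc3 2.75-fold (1.46, SE 0.33), Tnip1 2.29-fold (1.20, SE 0.15) and Nfkbib 1.40-fold (0.49, SE 0.09). These libraries are not those of TNF and vehicle, so the comparison repeats the TNF effect in separate cultures of the same animals. With the animal as a block 9 of 10 were called, against 10.6% of all genes, with Nfkbiz at a log2 change of 1.15 (SE 0.15), Bcl3 at 0.68 (SE 0.12) and Cyld at 0.31 (SE 0.07). Tnip2 was the exception, at -0.05 (SE 0.08) on the log2 scale. Groups did not overlap for 7 members, the 6 called and Nfkbiz, against 4.98% of all genes. When single libraries were left out of the model without a block, Birc3 was called in 10 of 16 fits and Nfkbie in 12 of 16. Birc3 lost its call without PFM037 1 or 2 or any of the PFM037+TNF libraries, and Nfkbie without PFM037 1 or 2 or PFM037+TNF 3 or 4, with adjusted p up to 0.102 for Birc3 and 0.0799 for Nfkbie (edgeR). Nfkbib lost its call without the filter on low counts, at an adjusted p of 0.0513, and with just these libraries in the fit, at 0.0506 (edgeR). With the block, Birc3, Nfkbie and Nfkbib were called in all 4 fits that leave out an animal.

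The comparison of PFM037+TNF with vehicle, which shares its libraries with the comparisons above, called 5 of 10 members higher without the block and 9 of 10 with it, against 1.38% and 12.8% of all genes. Without the block Nfkbib, Nfkbiz, Bcl3, Cyld and Tnip2 were not called. Nfkbib, which was called with TNF alone, had a log2 change of 0.32 (SE 0.09, edgeR adjusted p = 0.0668), and was called with the block (edgeR adjusted p = 0.00684). Birc3 (edgeR adjusted p = 0.0491) and Nfkbie (edgeR adjusted p = 0.0476) were each called without the block in 3 of the 16 fits that leave out a library. Both were called with the block in all 4 fits that leave out an animal. In this comparison 7 of 10 members did not overlap between the groups, against 4.81% of all genes.

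PFM037 alone changed none of the 10 by the test, with or without the block, and 0% of all genes were called without the block and 0.0794% with it. At an unadjusted p under 0.05 the count in edgeR was 0 of 10 without the block and 2 of 10 with it, Nfkbib and Nfkbie, and over all 13856 genes it was 223 and 1195. DESeq2 and limma-voom called 0 of 10. The log2 changes lay between -0.34 for Nfkbie and 0.14 for Tnip2. With the animal as a block, the 95% interval ran from -0.40 to 0.02 for Nfkbia, from -0.52 to 0.09 for Tnfaip3, from -0.55 to -0.01 for Nfkbie and from -0.18 to 0.44 for Nfkbiz. Over the 10, the intervals spanned -0.55 to 0.44, so the change that TNF alone gave lies outside the interval of each of the 8 members called with TNF in that model. Nfkbia, Nfkbib and Tnfaip3 were lower with PFM037 in 4 of 4 animals and Tnip2 was higher in 4 of 4. The members share these animals and libraries, and the share of all genes that agree in this way is not given here. For Nfkbia the groups did not overlap, with 144 to 168 CPM against 173 to 195 CPM, and 0.65% of all genes were lower in this way. Its log2 change of -0.19 (SE 0.10) had an edgeR adjusted p of 0.649 with the block.

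Added to TNF, PFM037 also changed none of the 10 by the test, where 0% of all genes were called without the block and 1.36% with it. At an unadjusted p under 0.05, 0 of the 10 passed in either edgeR model, where 515 of 13856 genes did without the block and 2132 with it. DESeq2 and limma-voom called 0 of 10. Tnfaip3 was at 413 ± 81.1 CPM with both agents and 414 ± 77.9 CPM with TNF (SD, n = 4), and Nfkbia at 555 ± 119 and 577 ± 120.4 CPM. With the block, the 95% interval of the log2 change was -0.30 to 0.29 for Tnfaip3, -0.27 to 0.16 for Nfkbia, -0.37 to 0.14 for Nfkbie, -0.30 to 0.33 for Birc3 and -0.19 to 0.36 for Tnip1. Nfkbiz had the largest value of the 10, 0.28 (interval -0.03 to 0.58), from within-animal changes of 0.52, 0.52, -0.14 and 0.17. Groups overlapped for all 10, and 1.29% of all genes were higher and 1.49% lower without overlap.

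The interaction, the difference between the TNF change with and without PFM037, was not called for any member, and 0% of all genes were called in either model. At an unadjusted p under 0.05, 0 of 10 members passed in either edgeR model, and 91 of 13856 genes did without the block and 383 with it. With the block the log2 differences lay between -0.10 for Tnip2 and 0.23 for Bcl3, and their 95% intervals between -0.33 and 0.63. Among the 40 within-animal differences, 30 were above 0, from -0.33 to 0.47. The 40 pool the 10 members over the same animals and libraries, so they are not 40 separate observations. With the block, the difference was above 0 for 9 of 10 members, against 54.4% of all genes. The PFM037 and vehicle levels enter each within-animal difference, and 25 of the 40 changes with PFM037 alone were below 0. The part of those changes in the differences was not tested.

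**Figure D3:**
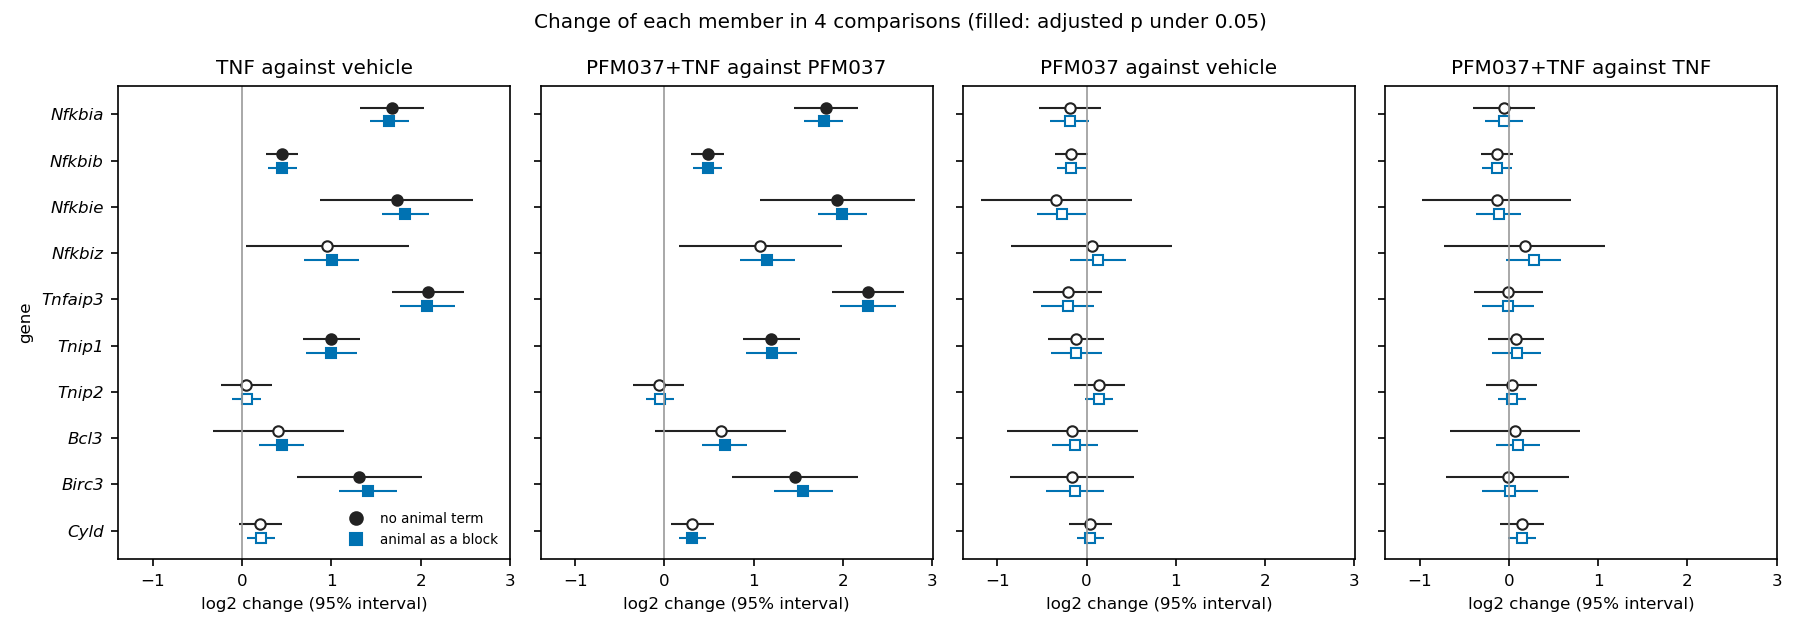
Log2 change of each inhibitor (x axis) in 4 comparisons, with 95% intervals, without an animal term (black circles) and with the animal as a block (blue squares), filled where the adjusted p was under 0.05. Both TNF comparisons carry 6 filled black circles, and both PFM037 comparisons carry none.

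**Figure D4:**
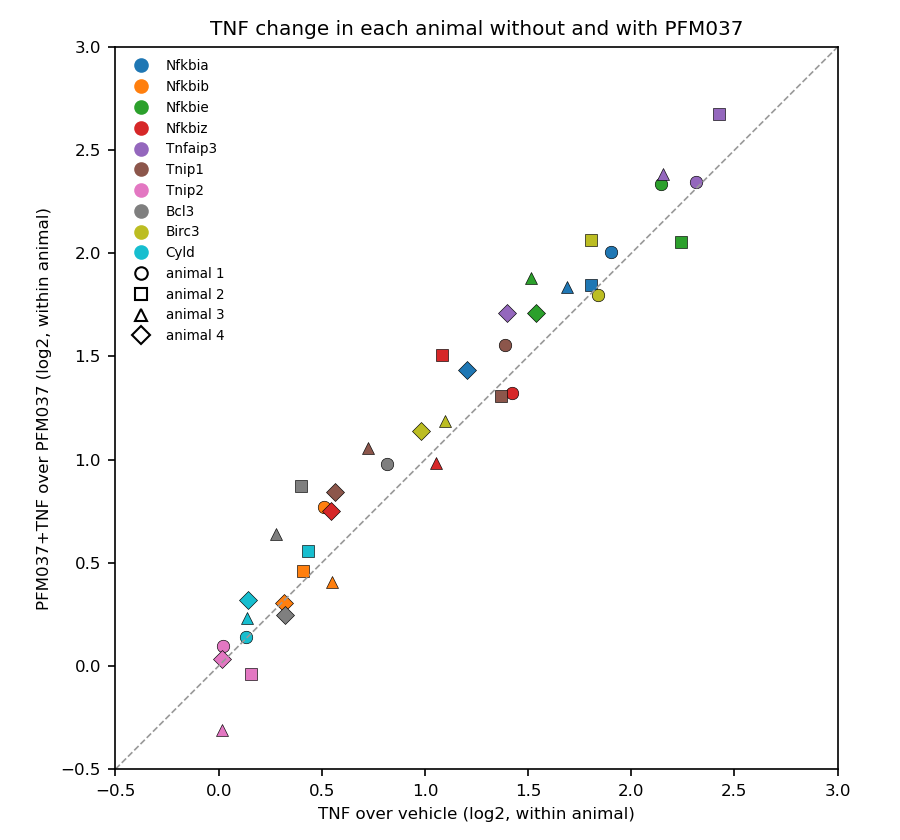
Log2 change with TNF within each animal without PFM037 (x axis) and with PFM037 (y axis), coloured by gene and shaped by animal, with the dashed line marking equal changes. Of the 40 points, 30 lie above the line, and the differences run from -0.33 to 0.47. Points of the same animal share libraries and are not separate observations.

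Across the 16 libraries, each first centred on its animal's mean log2 CPM, Nfkbia and Tnfaip3 had a Pearson correlation of 0.996. Among the 8 members other than Tnip2 and Cyld, a split made after the values were seen, the 28 pairs ran from 0.84 to 1.00. Cyld correlated with those 8 at 0.57 to 0.82, and Tnip2 with the other 9 at -0.05 to 0.16. These coefficients are descriptions, since libraries share animals, depth and the TNF contrast. Of 9791 genes with a mean of at least 5 CPM, the 4 outside the list most like Nfkbia by this measure were Gpr84 (0.993), Sowahc (0.992), Ccrl2 (0.992) and Sod2 (0.991). The 4 most like Tnfaip3 were Nadk (0.992), Gpr84 (0.992), Ralgds (0.992) and Ccrl2 (0.990).

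Other genes of the pathway were counted in the same fit. Of all genes tested, 1.8% were called higher and 0.88% lower with TNF. The block raised these shares to 9.59% and 9.84%, so counts with the block are to be read beside them. Of the 5 NF-kB subunits, 2 rose with TNF, Relb by 2.55-fold and Nfkb2 by 2.19-fold, and 4 did with the block. Of 18 genes of the IKK complex, its adaptors and kinases, 2 rose, the kinase gene Ikbke by a log2 change of 0.97 (SE 0.10) and the adaptor gene Traf3 by 0.60 (SE 0.10), and 4 did with the block, when Traf1 at 2.27 and Ikbkg at 0.44 were added. None of the 3 genes of LUBAC, the complex that makes linear ubiquitin chains, was called in either model.

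A list of 20 other restraints of NF-kB, of which 19 were tested, had none called without the block, while 8 rose and 2 fell with it. Of all genes, 9.59% rose and 9.84% fell with the block. Those that rose included Irak3, an inhibitor of Toll-like receptor signalling, at a log2 change of 0.89 (SE 0.08), N4bp1 at 0.85 (SE 0.09) and Tnip3, the gene of the third ABIN protein, at 0.77 (SE 0.13). Otulin, which encodes a deubiquitinase for linear chains, fell by 0.32 (SE 0.07) on the log2 scale. The median log2 change of these 19 was 0.21, beside 0.98 for the 10 feedback inhibitors. It was 0.70 for the targets outside the loop that were tested, 0.58 for the subunits, 0.17 for the IKK list and -0.08 for LUBAC. Of 30 targets outside the loop, 29 were tested, of which 8 rose and 2 fell, and 22 rose and 3 fell with the block. Sod2, the mitochondrial superoxide dismutase, rose 3.94-fold, the chemokine gene Cxcl2 4.00-fold and the adhesion gene Icam1 2.43-fold, whereas Plau fell by 1.09 and Bcl2l1 by 0.54 on the log2 scale.

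In PFM037+TNF against PFM037 the same lists gave 2 of 5 subunits higher, again Relb and Nfkb2, 3 of 18 genes of the IKK list, 0 of 3 of LUBAC, 1 of 19 other restraints, and 7 higher and 1 lower of 29 targets. With the block these counts were 4, 9, 0 and 8 higher, and 22 higher and 2 lower. Of all 13856 genes, 1.54% were called higher in this comparison without the block and 10.6% with it. Higher were 213 of the 312 genes called without the block and 1475 of the 2828 called with it, and the others were lower. Relb, whose protein works in the alternative NF-kB pathway, rose 2.88-fold there (log2 change 1.53, SE 0.21). Traf1, an adaptor gene, rose 5.02-fold (log2 change 2.33, SE 0.58, edgeR adjusted p = 0.0489), from 19.6 ± 12.4 CPM with PFM037 (SD, n = 4). In TNF against vehicle Traf1 was not called without the block (edgeR adjusted p = 0.0763).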

How the data were processed

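Per the labels' protocols, RNA was purified on spin columns and stranded TruSeq mRNA libraries were read as single 75-base reads. The submitters' processing notes name STAR 2.5.3a, featureCounts, limma and mm10 (GRCm38). The annotation release and any strand setting were not found in the sources used here. The authors deposited raw read counts per gene, which are not normalized. Library totals, 9403232 to 21017905, limit the precision of low genes.

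The tests used edgeR 4.0.16 in R 4.3.3, with the quasi-likelihood F-test, TMM scaling and filterByExpr (minimum count 10, minimum total 15). One model with a mean per group held all 16 libraries. This model has no animal term, so it treats libraries of the same animal as independent. It kept 13856 genes, over which p-values were adjusted by Benjamini-Hochberg with a threshold of 0.05. Intervals are 95% intervals of the model. CPM uses TMM effective library totals. The procedure was also run on simulated counts with a fixed spread and no animal effect. That run therefore says nothing about the pairing in these data.

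Pairing comes from the animal numbers in the labels. Between libraries of the same animal, residuals from group means had correlations of 0.497 to 0.777 over 24 pairs, so values with the animal as a block stand beside results they change. Further alternatives used the scaling of DESeq2, no scaling beyond library size, no filter on low counts, a minimum of 5 CPM in 4 libraries, the tools DESeq2 1.42.0 and limma 3.58.1 (voom), fits to just the groups in question, and fits that omit a library or an animal.

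All 10 members are described. In other lists the up to 3 called genes with the smallest adjusted p were named, and further genes were named after their values were seen. Likeness was ranked by Pearson correlation of animal-centred log2(CPM + 0.5). Members and lists were chosen with earlier results of these data known. Otud7a and Csf2 were below the filter.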

Additional observations from a re-analysis of the deposited data

Results flagged for a closer look

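In groups of 4 values, a single value was far from the other 3 in 5 of 100 groups examined (40 of levels and 60 of within-animal changes), judged by Dixon's critical value for the gap over the range. Chance alone gives about 1 in 20 such groups. Nfkbia stood at 398 CPM in the TNF culture of animal 4, where the next value was 623 CPM. Tnip2 stood at 38.9 CPM in the TNF culture of animal 3, where the next value was 31.6 CPM. The log2 change of Nfkbie in PFM037+TNF against TNF was 0.10 in animal 1 and between -0.20 and -0.17 in the others. With TNF against vehicle in animal 2, the log2 change of Tnip2 was 0.16, beside 0.02 in the others, and that of Cyld was 0.43, beside 0.13 to 0.14 in the others.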

How the results depend on the processing

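Of the 10 members, 6 were called with TNF against vehicle, 3 with just those libraries in the fit and 8 with the animal as a block. With libraries left out, the block included, 4 to 8 were called. For PFM037+TNF against PFM037 the count of 6 became 9 with the block, 5 without a filter, 5 with just those libraries in the fit, and 4 to 9 with libraries left out, the block included. For PFM037+TNF against vehicle the count of 5 became 9 with the block, 3 with DESeq2 size factors, 3 with just those libraries in the fit, and 3 to 9 with libraries left out, the block included. In PFM037+TNF against TNF the log2 change of Birc3 turned to 0.015 with the block and 0.014 with library size alone, and that of Tnfaip3 to 0.024 with library size alone, 0.0017 without a filter and 6.63e-05 with limma-voom. Tnip2 turned to -0.0091 with TNF under library size alone. Leaving out libraries, with or without the block, also turned values of members that were not called. With PFM037 alone the ranges were -0.35 to 0.14 for Bcl3, -0.36 to 0.071 for Birc3, -0.030 to 0.12 for Cyld and -0.19 to 0.38 for Nfkbiz. For PFM037+TNF against TNF they were -0.10 to 0.29 for Bcl3, -0.11 to 0.11 for Birc3, -0.20 to 0.081 for Nfkbia, -0.27 to 0.020 for Nfkbie, -0.012 to 0.56 for Nfkbiz, -0.13 to 0.12 for Tnfaip3, -0.0058 to 0.18 for Tnip1 and -0.051 to 0.12 for Tnip2. Tnip2 ranged from -0.026 to 0.15 with TNF and from -0.15 to 0.045 for PFM037+TNF against PFM037. The interaction ranged from -0.075 to 0.44 for Bcl3, -0.085 to 0.34 for Birc3, -0.019 to 0.27 for Nfkbia, -0.050 to 0.088 for Nfkbib, -0.066 to 0.43 for Nfkbie and -0.20 to 0.50 for Nfkbiz. Over all genes, 371 were called with TNF against vehicle, 2692 with the block, 641 with DESeq2 and 110 with just those libraries. With single libraries left out of the model without a block, 206 to 401 were called. With an animal left out of the block model it was 1581 to 2294. The corresponding first 4 counts were 312, 2828, 583 and 181 for PFM037+TNF against PFM037, and 365, 3437, 783 and 133 for PFM037+TNF against vehicle. Without a filter, 218 genes were called in PFM037+TNF against PFM037 and 223 in PFM037+TNF against vehicle. DESeq2 size factors in edgeR gave 357 in the latter comparison. Fits without the block that leave out a single library called 163 to 310 genes in the former and 160 to 417 in the latter. When an animal was left out of the block model, 1434 to 2464 were called in the former and 2045 to 2950 in the latter. For the interaction and for either comparison that adds PFM037, 0 members were called in edgeR, DESeq2 and limma-voom under every alternative run, and a fit to single groups was not run for the interaction. The causes were not tested.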
